A study of Mus musculus with 40 samples.

Results

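miR-122 is the most abundant microRNA of hepatocytes. Both arms of its hairpin are described here: mmu-miR-122-5p, the arm that is mainly loaded into Argonaute, and mmu-miR-122-3p, the passenger arm. They were taken by name from a count table of mature miRNAs and make up 2 of its 1894 entries. Their levels are given in 40 small RNA libraries of 4 tissues (liver, brown fat, hypothalamus and the gastrocnemius muscle), taken from 10 male mice. The hairpin gene Mir122 (ENSMUSG00000065402.1) lies on the + strand of chromosome 18, from 65248861 to 65248926 in the GENCODE annotation of GRCm38 (mm10). It spans 66 bases and overlaps 1 of the 5 exons of a long intergenic non-coding RNA, AC157910.3 (ENSMUSG00000118017.1, 65244287 to 65252621, + strand).

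A miRNA hairpin is cut into a short duplex, and usually one arm stays in the silencing complex while the other is degraded. In hepatocytes miR-122-5p represses many mRNAs and takes part in control of cholesterol and lipid metabolism. Because other cell types make little of it, miR-122-5p is widely used as a blood marker of liver injury, and extracellular miR-122 is one of the miRNAs studied as a possible signal between organs.

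The mice came from a cross of UCP1;cre mice, whose Cre recombinase is driven by the promoter of the brown fat gene Ucp1, with UPRT mice, which carry a CAG-GFP,-Uprt transgene. UPRT converts the injected base 4-thiouracil (4TU) into a nucleotide that cells build into new RNA. All groups were 8 to 12 weeks old, ate standard chow and received 4TU intraperitoneally at 50 mg/kg, 4 times at 48 h intervals. Each tissue has 5 input libraries of total small RNA and 5 libraries of RNA that was biotinylated at 4TU and captured on streptavidin (IP), which makes 8 groups. The purpose given for the series is to label brown fat miRNAs and look for them in other organs. The labels name no group without 4TU or without Cre and give no genotype of a single mouse. The level that capture gives without label therefore was not measured here. Pool 1 held the inputs and pool 2 the IPs, and an effect of the pool cannot be told apart from one of the capture.

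Totals ran from 153036 to 5562487 counts in the inputs and from 11928 to 921297 in the IPs. Levels below are counts per 1000000 counted miRNA reads (CPM) or a percent of counted reads. The sum over 12 listed hepatocyte miRNAs (miR-122 left out) was 166028 to 240678 CPM in the liver inputs and 2227 to 52780 CPM in the other inputs. The sum over 7 muscle miRNAs was 630794 to 653777 CPM in the muscle inputs. In the brown fat inputs the muscle sum was also high, 69175 to 293542 CPM, and in inputs 1, 3 and 5 it was above the sum over 9 brown fat miRNAs (100285, 128537 and 107401 CPM). The part of this muscle signal in the brown fat values of miR-122 was not tested. Among the hypothalamus inputs, input 4, from mouse 8, stood apart. This library had the lowest input total (153036). Its muscle miRNA miR-1a-3p stood at 178996 CPM, against 1468 to 2475 CPM in the other 4 hypothalamus inputs, and its neuronal miR-9-5p at 29935 CPM, against 45336 to 132871 CPM. Its 9 listed brown fat miRNAs summed to 12783 CPM (others 1668 to 2715 CPM) and its 12 listed hepatocyte miRNAs to 45446 CPM (others 18860 to 52780 CPM). Of the hepatocyte sum, 35137 CPM was miR-148a-3p, as was 47278 CPM of the highest sum, in input 5. Hypothalamus input 5, from mouse 9, also differed from inputs 1 to 3 and had the highest input total (5562487). Its miR-9-5p stood at 45336 CPM, against 112963 to 132871 CPM in inputs 1 to 3. For miR-148a-3p those 3 inputs held 12365 to 14844 CPM. Many results that rest on input 4 are given with and without it, though not all. Among the IPs, liver IP 4 had the lowest total (11928) and 15719 CPM of miR-1a-3p, against 430.4 to 1274 CPM in the other liver IPs.

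Other hepatocyte miRNAs served as a reference for miR-122, from a list of 12 that leaves miR-122 out. Mature sequences of all 12 were found in RefSeq (GRCm38.p6). The 4 with the highest level in the liver inputs, and miR-194-2-3p, which alone among the tested list members was called higher in the liver IP, are shown because the pull-down of miR-122 is read against them. Capitals mark the seed, bases 2 to 8 from the 5′ end, which pairs with target mRNAs.
mmu-miR-192-5p: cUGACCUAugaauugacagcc
mmu-miR-148a-3p: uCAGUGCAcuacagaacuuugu
mmu-miR-101b-3p: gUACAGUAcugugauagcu
mmu-miR-194-5p: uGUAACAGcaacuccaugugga
mmu-miR-194-2-3p: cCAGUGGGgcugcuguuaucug
The first lies at chr19:6264857-6264877 (+), the second at chr6:51269829-51269850 (-), the third at chr19:29135338-29135356 (+) and the last at chr19:6264694-6264715 (+). miR-194-5p is made from 2 hairpins, at chr1:185313325-185313346 (+) and chr19:6264658-6264679 (+). The 5 seeds differ from each other. A list member that is not shown, miR-215-5p, has the seed of miR-192-5p, UGACCUA. 4TU can stand in for uridine, of which these molecules hold 5, 7, 6, 5 and 7 in the order shown. Sequences of the miR-122 arms were not found in the source used, so their uridines are not given for comparison.

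In the liver, miR-122-5p ranked first among all miRNAs in each of the 10 libraries. It took 43.2%, 37.5%, 37.2%, 43.3% and 38.3% of counts in liver inputs 1 to 5, a mean of 39.9% ± 3.09 (SD, n = 5). In the remote tissues its level was lower by orders of magnitude. Brown fat inputs 1 to 5 held 161, 129.9, 181, 212 and 180.2 CPM (172.9 ± 30.3, SD, n = 5). Muscle inputs 1 to 5 held 494, 61.7, 52.6, 198 and 41.2 CPM (169.5 ± 192.3, SD, n = 5). The 2 high muscle libraries are those of mice 1 and 8. Hypothalamus inputs 1 to 5 held 201, 103, 113, 17083 and 323 CPM, a mean of 3564 ± 7558 (SD, n = 5), and 184.8 ± 102.2 (SD, n = 4) without input 4. In that library miR-122-5p ranked 13th, against ranks 132 to 239 in the other 4. The same mouse gave brown fat input 5, which lay within the range of its group.

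By median the inputs were ordered liver (382542 CPM), hypothalamus (200.7 CPM), brown fat (180.2 CPM) and muscle (61.7 CPM). The liver median was 1906 times that of the hypothalamus, 2123 times that of brown fat and 6202 times that of muscle, and no remote library reached a liver library. The 3 remote tissues overlapped one another in every pair. Without hypothalamus input 4 the median of the hypothalamus was 156.7 CPM, below that of brown fat. In bulk tissue, fewer cells of a type and less RNA per cell cannot be told apart.

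**Figure D1:**
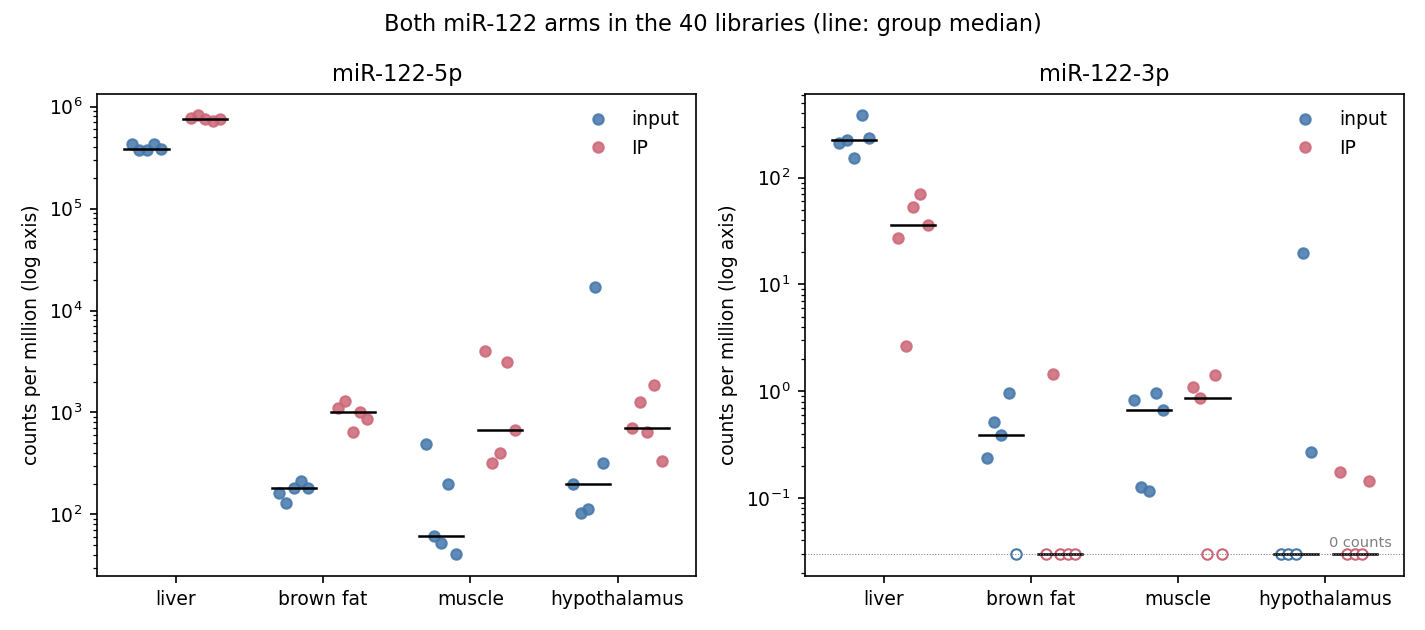
Level of miR-122-5p and miR-122-3p in each of the 40 libraries, in CPM on a log axis, by tissue and library type; each point is 1 library, lines are group medians, and open points on the lowest line have 0 counts. The liver libraries lie far above all others for the 5p arm, hypothalamus input 4 (17083 CPM) stands apart from its group, and the 3p arm is at or near 0 outside the liver.

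Input levels were tested with the quasi-likelihood test of edgeR over the 20 inputs (444 miRNAs tested, Benjamini-Hochberg adjustment, threshold 0.05). The fold changes are on its scale of trimmed mean of M values (TMM). miR-122-5p was higher in liver than in brown fat, by 12.43 log2 units (SE 1.79, adjusted p = 1.17e-05), in a comparison that called 19.6% of miRNAs higher in liver. Against muscle the difference was 10.21 (SE 1.66, adjusted p = 2.94e-05), with 27.5% called higher in liver. Against hypothalamus it was 8.17 (SE 1.53, adjusted p = 5.55e-05; 32% called higher in liver) and 12.60 without hypothalamus input 4. These differences were large beside the spread of the libraries.

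Among the remote inputs the order was not settled. Brown fat against muscle gave -2.22 (SE 1.17, adjusted p = 0.142, edgeR), not a call, where 40.1% of miRNAs were called in either direction. The median of brown fat was the higher one, and with total count as the only scaling the value was 0.03. Brown fat against hypothalamus gave -4.25 (SE 1.28, adjusted p = 0.00436), a call in a comparison that called 84% of miRNAs. It was lost with mouse as a block (-0.79, adjusted p = 0.588) and without hypothalamus input 4 (0.17, adjusted p = 0.807). Muscle against hypothalamus gave -2.04 (SE 1.16, adjusted p = 0.111), where 83.1% were called. The sign turned without hypothalamus input 4 (2.39, adjusted p = 0.00285), while without muscle input 1 the difference was called in the first direction (-3.12, adjusted p = 0.0273).

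The passenger arm was far rarer. Liver inputs 1 to 5 held 211, 226, 153, 383 and 233 CPM of miR-122-3p (241 ± 85.3, SD, n = 5). Outside the liver, 17 of 30 libraries held any count of it and 7 held at least 1 whole count. The 5 counts per group were 0.5, 0.5, 0.5, 1.5 and 0 in brown fat inputs, 3.5, 0.5, 0.5, 4.5 and 2.5 in muscle inputs and 0, 0, 0, 3 and 1.5 in hypothalamus inputs. The deposited values are expected counts, many of them fractional. The muscle libraries with the most 3p counts were again those of mice 1 and 8, and in the hypothalamus it was input 4 (19.6 CPM). miR-122-3p was called higher in liver by 10.53 (SE 0.84) against brown fat, 8.01 (SE 0.72) against muscle and 9.89 (SE 0.83) against hypothalamus (11.04 without hypothalamus input 4), with adjusted p from 6.08e-10 to 1.59e-08 (edgeR). It passed the low-count filter only through the liver libraries, so a difference was built in, and its size rests on the few remote counts.

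In the IPs the liver again led. miR-122-5p took 76.8%, 82.0%, 76.0%, 72.0% and 74.9% of counts in liver IPs 1 to 5 (76.3% ± 3.64, SD, n = 5). Brown fat IPs 1 to 5 held 1105, 1298, 638, 1007 and 866 CPM (983 ± 249, SD, n = 5). Muscle IPs 1 to 5 held 3981, 316, 399, 3107 and 679.7 CPM (1697 ± 1720, SD, n = 5), and mice 1 and 8 were again the high ones. Hypothalamus IPs 1 to 5 held 697, 1254, 643, 1875 and 333 CPM (960 ± 610, SD, n = 5). Mouse 8 was highest in the hypothalamus IPs too, by a far smaller margin than in the inputs. miR-122-5p ranked 40 to 58 in the brown fat IPs, 13 to 39 in the muscle IPs and 34 to 87 in the hypothalamus IPs.

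By median the IPs were ordered liver (759928 CPM), brown fat (1007 CPM), hypothalamus (697 CPM) and muscle (679.7 CPM). The liver median was 754 to 1118 times those of the other tissues. In the edgeR fit of the 20 IPs (209 miRNAs tested), miR-122-5p was higher in liver by 10.72 against brown fat (SE 1.08, adjusted p = 1.86e-10; 8.13% called higher in liver). Against muscle the log2 difference was 8.13 (SE 0.98, adjusted p = 3.13e-09; 12.9% called) and against hypothalamus 11.94 (SE 1.13, adjusted p = 1.175e-11; 31.6% called). The ranges of the 3 remote IP groups overlapped in CPM.

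Between the remote IPs, the calls followed the scaling. Brown fat was below muscle by -2.59 (SE 0.76, adjusted p = 0.00544, edgeR; 41.1% of miRNAs called). This call was lost with total count (-0.79, adjusted p = 0.184), with mouse as a block (-1.45, adjusted p = 0.179) and without muscle IP 1 (-1.63, adjusted p = 0.066). Brown fat against hypothalamus gave 1.22 (SE 0.73, adjusted p = 0.12; 82.3% called), with the opposite sign when scaled by median ratios (RLE, -0.51). Muscle was above hypothalamus by 3.81 (SE 0.80, adjusted p = 5.54e-05; 69.9% called), and by 0.82 (adjusted p = 0.154) with total count. No order of the 3 remote IPs held under each scaling.

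The comparison of IP with input asks how much of a miRNA the capture retains relative to the others. In 18 of the 19 pairs of libraries from the same mouse and tissue, the share of miR-122-5p was higher in the IP. Such pairs were not counted for all other miRNAs, so the count does not show whether this is unusual. By edgeR fold change of IP against input, miR-122-5p ranked 20th of 305 miRNAs in brown fat and 27th of 200 in liver. Its rank was 17th of 268 in muscle and 168th of 273 in hypothalamus. Brown fat replicate 5 joins mouse 8 (input) with mouse 10 (IP) and is not such a pair. The ratio of IP to input CPM was 1.66 to 2.19 in the liver (5 of 5 pairs higher), where a share of 39.9% leaves little room for a larger ratio. It was 3.52 to 9.997 in brown fat (4 of 4), and 8.06, 5.13, 7.58, 15.7 and 16.5 in muscle replicates 1 to 5 (5 of 5). In the hypothalamus it was 3.47, 12.2, 5.71, 0.110 and 1.03 for replicates 1 to 5. The 1 pair with a lower share in the IP belongs to mouse 8, whose input 4 stood apart. Mouse 9, whose input 5 also differed from inputs 1 to 3, showed almost no change.

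**Figure D2:**
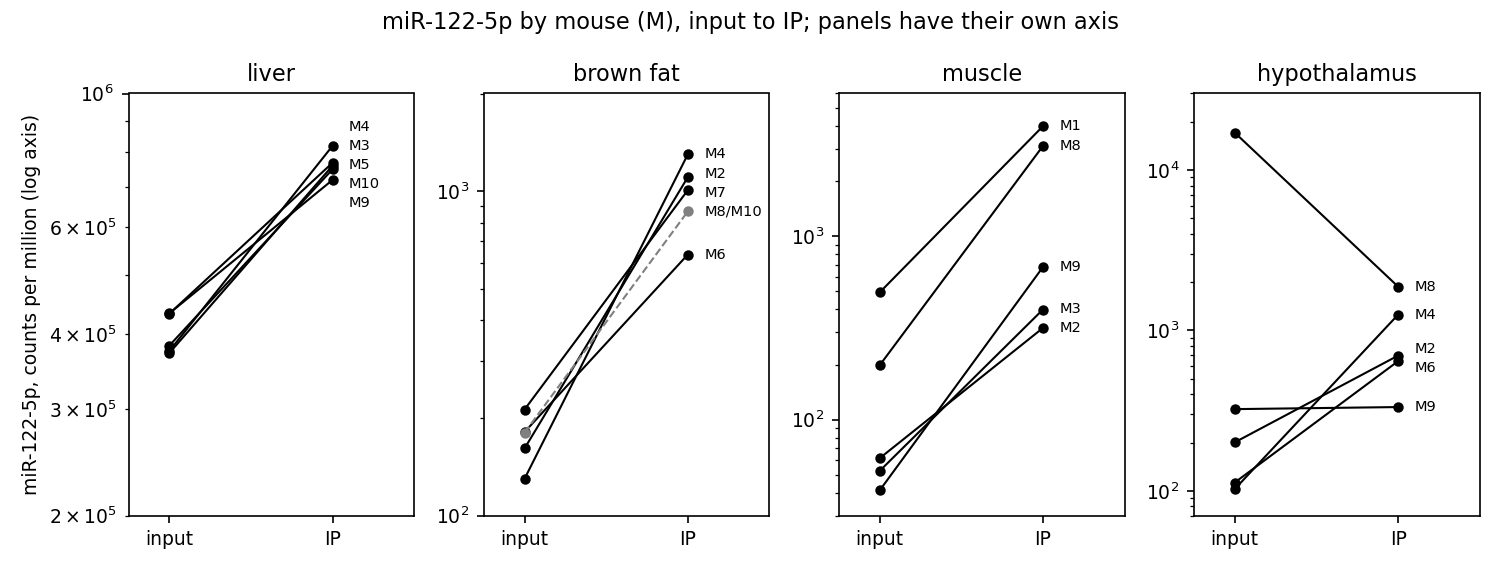
miR-122-5p in input and IP of the same mouse, in CPM on a log axis, 1 panel per tissue; each solid line joins the 2 libraries of 1 mouse, and the dashed line joins mice 8 and 10. Solid lines go up in 18 of 19 pairs, and the line of mouse 8 in the hypothalamus goes down, from 17083 to 1875 CPM.

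In the edgeR test miR-122-5p was higher in the IP of brown fat, by 3.56 log2 units (SE 0.27, adjusted p = 8.34e-09). There 36.7% of 305 miRNAs were called higher and 43.3% lower, with a median change of -0.34. In muscle it rose by 4.56 (SE 0.85, adjusted p = 3.2e-05), with 28.7% of 268 called higher, 56.3% lower and a median of -1.41. Without muscle input 1 the value was 5.67, without muscle IP 1 3.09, and without all 4 muscle libraries of mice 1 and 8 3.61 (adjusted p = 1.69e-06). In both tissues miR-122-5p was on the side of the smaller number of calls, those higher in the IP.

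In the liver miR-122-5p rose by 2.51 (SE 0.55, adjusted p = 0.000228), with 28.5% of 200 miRNAs called higher, 46% lower and a median of -0.78. Its size depended on the scaling, being 0.94 with total count and 1.61 with RLE, and both were calls. It also depended on the filter and the inputs. The value was 1.69 with no filter, 1.54 with a minimum mean of 10 CPM, and 1.72 to 1.89 when any single liver input was left out, all calls. In a fit of all 40 libraries the call was lost (2.27, adjusted p = 0.0523). Without liver IP 4 it was 2.74 (adjusted p = 1.06e-08). In the hypothalamus the value was -1.88 (SE 1.43, adjusted p = 0.246), not a call, with 28.2% of 273 called higher, 47.3% lower and a median of -1.04. Without hypothalamus input 4 it was 2.86 (adjusted p = 0.000849), and with mouse as a block 2.17 (adjusted p = 0.0446), both calls in the opposite direction. The sign in the hypothalamus thus depended on input 4 and on whether mouse was a block in the fit.

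**Figure D3:**
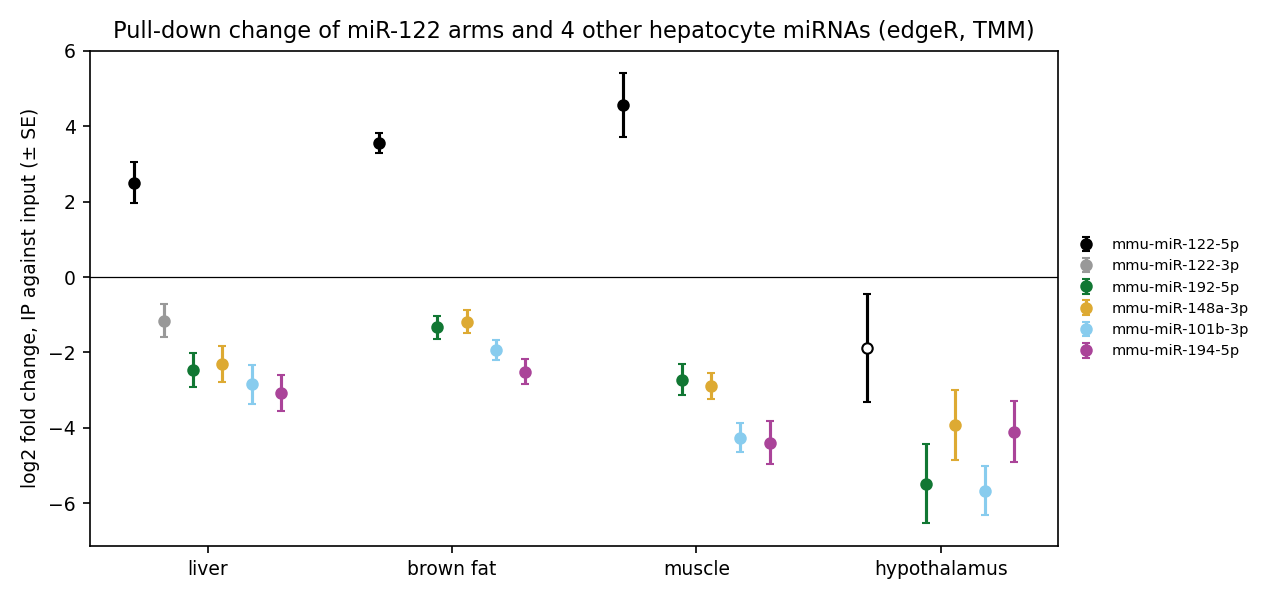
Log2 fold change of IP against input (edgeR, TMM) for miR-122-5p, miR-122-3p (liver only) and 4 listed hepatocyte miRNAs in each tissue, with bars of 1 SE; an open point is not a call. miR-122-5p lies above 0 in brown fat (3.56), liver (2.51) and muscle (4.56), and all 4 other miRNAs lie below 0 in all 4 tissues.

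Whether the IP change of miR-122-5p differed between tissues was tested as an interaction (edgeR), and none of the 5 differences was called. Liver minus brown fat was -1.46 (SE 0.57, adjusted p = 0.103; 8.44% of miRNAs called), and this became a call with total count (-1.57, adjusted p = 0.00317). Liver minus muscle was -2.58 (SE 1.02, adjusted p = 0.132; 3.14% called). It was a call with mouse as a block (-2.26, adjusted p = 0.0258) and without muscle input 1 (-3.62, adjusted p = 0.0347). Brown fat minus muscle was -1.10 (SE 0.97, adjusted p = 0.452; 21% called), and 0.29 without muscle IP 1. A p above the threshold does not show that miR-122-5p changed alike in these tissues.

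The differences that involve the hypothalamus moved with single libraries. Liver minus hypothalamus was 1.99 (SE 1.501, adjusted p = 0.354, edgeR, with 25.6% called). It was -2.42 without hypothalamus input 4 (adjusted p = 0.0406) and -1.47 with mouse as a block (adjusted p = 0.369). Brown fat minus hypothalamus was 3.01 (SE 1.42, adjusted p = 0.108; 34.4% called), 2.18 without that library (adjusted p = 0.00671), 7.10 without hypothalamus input 5 (adjusted p = 0.000526), and -0.38 with mouse as a block (adjusted p = 0.742).

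The arms did not move together in the liver. miR-122-3p fell from 241 ± 85.3 CPM in the inputs to 27.1, 2.67, 52.8, 69.6 and 35.7 CPM in liver IPs 1 to 5 (37.6 ± 25.4, SD, n = 5). For liver IP 4, 3 counts would be 251.5 CPM, above 4 of the 5 inputs, so at this depth a lower level there was not detectable. The IP values rest on 2.99, 0.5, 23.44, 0.83 and 7.42 counts. The log2 fold change of miR-122-3p was -1.15 (SE 0.43, adjusted p = 0.0171, edgeR), -2.90 with total count, and -0.89 (adjusted p = 0.0586) without liver IP 2. It was -1.87 with no filter, -2.33 with a minimum mean of 10 CPM, and -2.23 to -1.90 when any single liver input was left out. The 3p arm was 0.0599% ± 0.0180 of both arms in the liver inputs (SD, n = 5) and 0.00505% ± 0.00352 in the liver IPs (SD, n = 5). The log2 ratio of 5p to 3p counts (0.5 added to each), which no scaling of libraries can change, was 3.75 higher in the IPs (exact permutation test, two-sided, p = 0.007937, the smallest that 5 against 5 allows). It was 3.07 to 4.21 higher when any single liver library was left out, with the highest value without liver IP 4. Over the 5 mouse pairs an exact sign-flip test gave p = 0.0625, the smallest that 5 pairs allow.

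**Figure D4:**
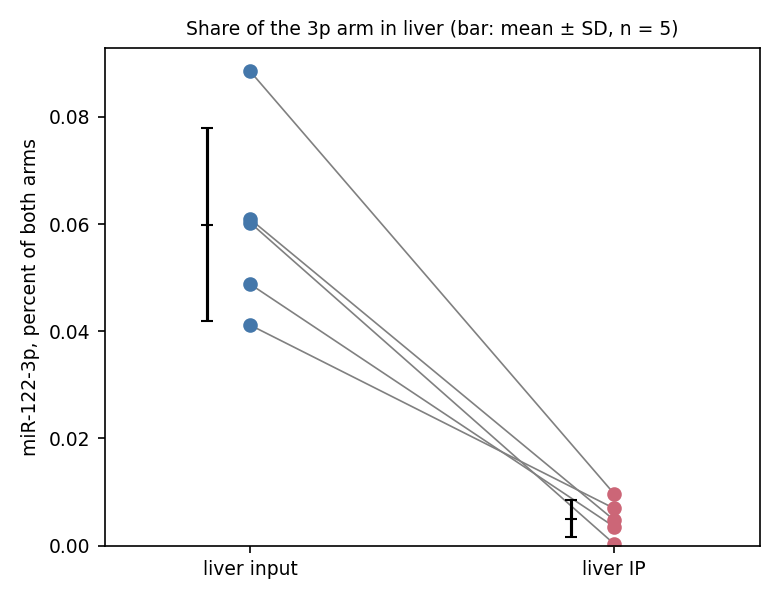
Share of miR-122-3p in the counts of both arms in the 5 liver inputs and 5 liver IPs, in percent; lines join the 2 libraries of 1 mouse, and the bars are the mean ± SD (n = 5). The inputs average 0.0599% and the IPs 0.00505%, and no IP reaches an input.

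In summed counts the 3p arm was 0.0582% of both arms in the liver inputs (exact 95% interval 0.0548% to 0.0617%) and 0.00473% in the liver IPs (0.00329% to 0.00658%). It was 0.237% in the brown fat inputs (3 counts; 0.0489% to 0.691%), 0.328% in the muscle inputs (12 counts; 0.169% to 0.572%) and 0.0809% in the hypothalamus inputs (4 counts; 0.0220% to 0.207%). Hypothalamus input 4 alone gave 0.115% (3 counts; 0.0236% to 0.335%). The muscle interval lies above that of the liver, that of the hypothalamus includes the liver value, and that of brown fat overlaps the liver interval. In the IPs the muscle share was 0.0385% (2 counts; 0.00466% to 0.139%). Summed and rounded counts were 0 in the brown fat IPs, which allows up to 0.148%, and 0 in the hypothalamus IPs, which allows up to 0.483%. Reads are copies made by PCR, and the labels name no molecular identifiers, so the intervals cover counting error only. Per library, the log2 ratio of 5p to 3p was higher in liver inputs by 2.85 than in brown fat, 3.14 than in muscle and 1.85 than in hypothalamus (exact permutation tests, two-sided, each p = 0.007937, adjusted over 3 tests 0.007937). In the brown fat inputs the 5p arm had at most 341.8 counts. None of them could have reached the lowest liver ratio (10.14), so that p was fixed in advance. With few 5p reads and 3p counts at or near 0, many muscle and hypothalamus inputs could not have reached it either. The summed shares pool the reads of 5 mice and leave out their spread. Single muscle inputs ran from 0.167% to 1.59%, and input 1 held 2091 of the 3651 summed 5p counts. Neither measure settles whether the arm balance differs between tissues.

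The other hepatocyte miRNAs showed where miR-122-5p differs from its neighbours. In the inputs 9 of the 12 listed were tested, and 8 of them were higher in liver than in each remote tissue, with miR-33-5p not called. Over all miRNAs 19.6%, 27.5% and 32% were called higher in liver than in brown fat, muscle and hypothalamus. For miR-802-5p and miR-194-2-3p, with liver means of 39.9 and 54.5 CPM and at most 0.11 and 3.46 CPM on average in a remote tissue, a difference was built in by the filter, so the count is only a description. The list's median difference was 3.99 against brown fat, 6.15 against muscle and 5.04 against hypothalamus, beside -0.16, 0.23 and -0.90 over all miRNAs tested. miR-192-5p, of a cluster active in gut and liver, stood at a mean of 82256 CPM in the liver inputs and 6260 CPM in the liver IPs. The listed miR-148a-3p stood at 77863 and 6383 CPM. It was also abundant outside the liver, with means of 25836 CPM in the brown fat inputs and 24691 CPM in the hypothalamus inputs (22080 CPM without input 4).

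In the IPs of liver, brown fat and muscle, most of the tested list members moved the other way from miR-122-5p, while in the hypothalamus the value of miR-122-5p itself was -1.88 and not a call. In the liver 7 listed miRNAs passed the filter, 6 were called lower and 1 higher, and their median was -2.46 beside -0.78 over all miRNAs. There 46% of all miRNAs tested were called lower. In brown fat 5 of 5 tested were lower (median -1.94), where 43.3% of all miRNAs were called lower with a median of -0.34. In muscle it was 4 of 4 (median -3.58), beside 56.3% and -1.41 over all, and in hypothalamus 4 of 4 (median -4.79), beside 47.3% and -1.04. The hypothalamus median includes input 4, with 5249 CPM of miR-192-5p against 635 to 865 CPM in the other inputs, and is not given without it. The other listed miRNAs did not pass the filter. In the liver miR-192-5p fell by 2.46 on the log2 scale (SE 0.45), miR-148a-3p by 2.30 (SE 0.48), miR-101b-3p by 2.85 (SE 0.51) and miR-194-5p by 3.07 (SE 0.47), each a call in edgeR. A rise of miR-122-5p lowers every other share in the same library. With both miR-122 arms taken out of the total, miR-192-5p still went from 136830 counts per 1000000 others in the liver inputs to 25360 in the IPs, and miR-148a-3p from 129442 to 25815. The exception was miR-194-2-3p, the other arm of 1 of the miR-194 hairpins, which rose by 2.90 (SE 0.35, adjusted p = 6.1e-08, edgeR). Reads of miR-194-5p can come from either of its 2 hairpins, so the arms of this one cannot be compared.

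The ratio of miR-192-5p to miR-122-5p gives a within-library measure of the pair. It was 0.208 ± 0.042 in the liver inputs (SD, n = 5) and 7.13 ± 1.89 in the brown fat inputs (SD, n = 5). In muscle inputs 1 to 5 it was 0.517, 2.36, 2.32, 1.01 and 2.88. miR-122-5p is its denominator, so the low ratios in inputs 1 and 4 restate in part their high miR-122-5p. In hypothalamus input 4 it was 0.307, against 2.29 to 8.01 in the other 4. Muscle inputs 1 and 4 also had the most miR-192-5p of their group, 255 and 200.5 CPM against 119 to 146 CPM. miR-802-5p, another hepatocyte miRNA, had 1.0 and 1.5 counts in these libraries and 0 in the other 3 muscle inputs, all under the limit of 3 counts and thus not distinguishable. Their sums over the whole hepatocyte list, 3012 and 2787 CPM, lay within the range of the other 3 (2227 to 3243 CPM). Most of these sums was miR-148a-3p and miR-101b-3p, 1498 and 1203 CPM in input 1 and 1181 and 1308 CPM in input 4. A sum within the range therefore says little about the rarer list members. The sum over 5 red blood cell miRNAs for input 1 also lay within the range (778 CPM, others 357 to 965 CPM), while input 4 had the lowest (326 CPM). In hypothalamus input 4, miR-192-5p was 5249 CPM against 635 to 865 CPM, and miR-802-5p was at 0 counts. The part of these levels in the miR-122-5p values was not tested.

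**Figure D5:**
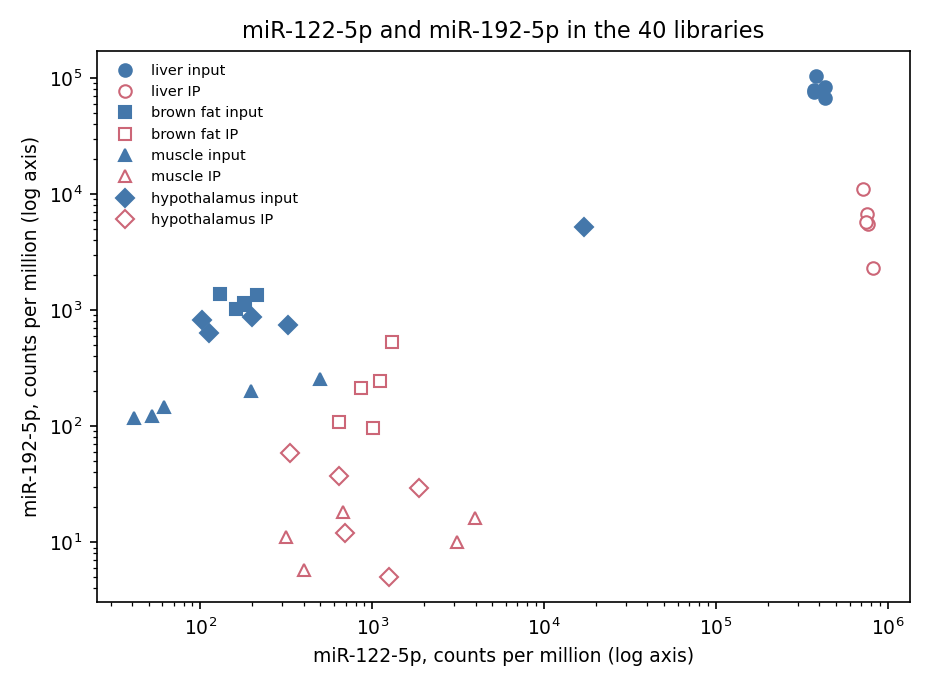
miR-192-5p against miR-122-5p in each of the 40 libraries, in CPM on log axes, by tissue and library type. The IPs of each tissue lie below its inputs in miR-192-5p, and hypothalamus input 4 lies apart from its group, at 17083 CPM of miR-122-5p and 5249 CPM of miR-192-5p.

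With the other arm left out, the miRNAs whose log2(CPM + 1) followed miR-122-5p most closely over the 20 inputs, of 392 compared, were miR-194-2-3p (Pearson r = 0.971), miR-1948-5p (0.964), miR-192-5p (0.956), miR-802-5p (0.908) and miR-194-5p (0.895). The other arm, miR-122-3p, had an r of 0.985 over the inputs and 0.907 over the IPs, and 0.878 and 0.438 without the liver libraries. The points share tissue, library and depth, and the liver sets most of the relation. In the inputs miR-194-2-3p, miR-1948-5p and miR-802-5p had at most 3.46, 1.43 and 0.11 CPM on average in a remote tissue. They reached the minimum mean of 10 CPM only through the liver, so a high r was built in for them. Over the 15 inputs without liver the values of the 5 first named were 0.792, 0.715, 0.682, 0.104 and 0.422. These 15 inputs, also behind the 0.878 of miR-122-3p, still hold hypothalamus input 4 (17083 CPM of miR-122-5p). No value leaves out both that library and the liver, so its part in these correlations was not tested. Over the 20 IPs, of 298 compared, the closest were miR-192-5p (0.857), miR-6978-3p (0.834), miR-194-2-3p (0.802), miR-194-5p (0.726) and miR-21a-5p (0.676). Without the liver IPs these were 0.012, 0.185, -0.291, -0.126 and 0.126. Here miR-6978-3p and miR-194-2-3p reached the minimum mean only through the liver, with at most 5.93 and 6.7 CPM on average in a remote tissue. miR-192-5p, miR-194-2-3p and miR-194-5p were on both lists, and in the remote IPs none of the 5 followed miR-122-5p closely.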

How the data were processed

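Small RNA libraries from 10 mice were counted per mature miRNA. The authors deposited 1 table of expected counts, and 18.9% of the positive values were whole within 0.001. How the fractions arose was not given in the sources used here. Per the submitters' processing notes, fastp, STAR, featureCounts and the mm10 build were used; versions, annotation, strand and multi-mapping settings were not given in the sources used here. Counts were rounded, which changed a total by at most 0.127%, and CPM were computed from the deposited counts. Groups, mice and pools follow the sample labels; 0 columns lacked a sample.

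Tests used edgeR 4.0.16 in R 4.3.3 (filterByExpr by group, TMM scaling, glmQLFit and glmQLFTest, two-sided, Benjamini-Hochberg over all miRNAs tested, threshold 0.05), on the 10 libraries of a tissue, 20 inputs, 20 IPs or 20 libraries of 2 tissues; the procedure was tested on simulated data. Arm ratios used exact permutation tests (scipy 1.17.1) and exact Clopper-Pearson intervals; a count of 0 is given a limit of 3 counts. Alternatives were total count or RLE scaling, DESeq2 1.42.0, no filter, a minimum mean of 10 CPM, all 40 libraries, mouse as a block and leaving out each library. DESeq2 gave no adjusted p for miR-122-5p in the hypothalamus IP against input, so that alternative is missing there. The labels give same-numbered input and IP libraries the same mouse in 19 pairs; their deviations from group means over 451 miRNAs correlated from -0.10 to 0.55 (median 0.11), over 0.1 in 11. The 5 libraries of a group come from 5 different mice, and some mice gave several tissues.

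The text names both arms, the list counts, the 4 list members with the highest mean in liver inputs, and the 5 miRNAs most correlated with miR-122-5p over the inputs and over the IPs (mean of at least 10 CPM). miR-194-2-3p, miR-33-5p, miR-215-5p, miR-802-5p and the marker miRNAs of hypothalamus input 4 were named also for their values, seen first. Members and lists were chosen with earlier results of these data known.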

Additional observations from a re-analysis of the deposited data

Results flagged for a closer look

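Of 18 groups of 5 values examined (miR-122-5p, miR-122-3p and, in liver, the share of the 3p arm), 3 held a value far outside the other 4. The rule would flag about 1 in 20 groups by chance if values were normally distributed. CPM with many values at 0 are not, so the number flagged cannot be set against that rate. A group with 0 in all but 1 library, as in the brown fat IPs, is always flagged. The flagged hypothalamus values are both from the same library. Hypothalamus input 4 held 17083 CPM of miR-122-5p, against 103 to 323 CPM in the other 4 inputs. The same library held 19.6 CPM of miR-122-3p, from 3 counts. Its miR-1a-3p and miR-9-5p levels, given above, also lay outside those of its group, and their part in the miR-122 values was not tested. Brown fat IP 2 held 1.46 CPM of miR-122-3p against 0 in the other 4 brown fat IPs, but this is an estimated 0.35 count and lies under the 3-count limit of that library, 12.5 CPM.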

How the results depend on the processing

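The results that answer a comparison were recomputed under each alternative, and 458 values kept direction and side of the threshold, 27 became calls, 8 lost the call and 14 changed sign. For miR-122-5p in the IP against input, the liver value was 2.27 (adjusted p = 0.0523, edgeR) when all 40 libraries were fitted, and the hypothalamus value was 2.17 with the mouse as a replicate block and 2.64 without both libraries of mouse 8 (the latter chosen after seeing the data). With the replicate block, brown fat against muscle was 0.23 (inputs) and -1.45 (IPs), brown fat against hypothalamus -0.79 (inputs), and the differences of IP change were -2.26 (liver minus muscle), -1.47 (liver minus hypothalamus) and -0.38 (brown fat minus hypothalamus). The liver arm balance stayed at 3.75 with p = 0.0625 (exact sign-flip test). The block changed no other call of the miR-122 arms. With total count the values were 0.030 (inputs, brown fat against muscle), -4.39 (inputs, muscle against hypothalamus), -0.79 (IPs, brown fat against muscle), 0.82 (IPs, muscle against hypothalamus), -1.57 (difference, liver minus brown fat) and 4.40 (difference, brown fat minus hypothalamus). Without a filter, inputs of brown fat against muscle gave -2.28 and the difference brown fat minus hypothalamus 2.80. For IPs of brown fat against hypothalamus, RLE gave -0.51 and DESeq2 -0.52; for the difference brown fat minus hypothalamus DESeq2 gave 4.28. Without both hypothalamus libraries of mouse 8 the differences were -2.17 (liver minus hypothalamus) and 2.37 (brown fat minus hypothalamus).

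Leaving out each library in turn, the IP against input value of miR-122-5p was 3.43 to 3.72 (brown fat), 1.72 to 2.74 (liver), 3.09 to 5.67 (muscle) and -2.41 to 2.86 (hypothalamus), and miR-122-3p in liver ran from -2.23 to -0.89. In the inputs the ranges were -2.48 to -1.03 (brown fat against muscle), -4.44 to 0.17 (brown fat against hypothalamus) and -3.12 to 2.39 (muscle against hypothalamus). In the IPs they were -2.85 to -1.63, 0.46 to 1.43 and 2.90 to 4.10 in the same order. The differences ran from -1.53 to -0.95 (liver minus brown fat), -3.62 to -0.82 (liver minus muscle), -2.42 to 2.37 (liver minus hypothalamus), -2.07 to 0.29 (brown fat minus muscle) and 2.18 to 7.10 (brown fat minus hypothalamus, where most such values were calls); the cause was not tested. The filter and scaling moved the number of calls: in the liver 57 miRNAs were called higher in the IP, and 29 with total count. In the inputs, liver against brown fat gave 87 higher and 117 lower, and 41 and 63 with the block. The 3p arm is limited by depth, with at most 12 counts per remote group.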
